A study of Mus musculus with 29 samples.

Results

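The genes described here are 9 leukocyte adhesion and homing molecules, namely Vcam1, Icam1 and Madcam1, which are counter-receptors on vessel walls, the selectins Sele and Selp, and the integrin subunits Itgal, Itgb2, Itga4 and Itgb7 of leukocytes. They were taken by symbol, with earlier results of these data known, and all 9 were found among the 24421 genes of the count table. Shares over all genes set beside them below are therefore descriptions and not an independent test. The libraries are bulk RNA-seq of 29 young female C57BL/6J mice that had all been injected intraperitoneally with YTN16, a mouse gastric cancer line, and 1 library was made per mouse from stripped peritoneum with or without disseminated nodules. At day 21 there were 5 untreated mice and 5 mice given anti-PD1 and anti-CTLA4 antibodies together (dual ICI, immune checkpoint inhibitors). At day 35 there were 5 untreated mice, 5 given anti-PD1 alone, 4 given anti-CTLA4 alone, 2 given dual ICI that were not cured (dual ICI-uncured) and 3 given dual ICI that were cured (dual ICI-cured). The labels do not give the outcome. The cured and uncured mice were told apart by the mouse numbers of the study, read as the numbers in the sample titles. The study also counted 1 cured mouse in the anti-PD1 group without a number that the labels carry, so that group was kept whole.

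Leukocytes leave the blood in steps. E-selectin (Sele) and P-selectin (Selp) on activated endothelium catch carbohydrate ligands of rolling leukocytes, and P-selectin is also stored in platelets. Chemokine signals then switch integrins into a state that binds firmly: LFA-1, made of the alpha subunit Itgal and the beta subunit Itgb2, binds ICAM-1 (Icam1), VLA-4, made of Itga4 and the beta subunit Itgb1, binds VCAM-1 (Vcam1), and the pair of Itga4 and Itgb7 binds MAdCAM-1 (Madcam1), which is known from the vessels of gut and gut-associated lymphoid tissue. Vcam1 and Icam1 are also carried by cells other than endothelium, such as mesothelial, stromal, myeloid and tumor cells, and both are classic targets of inflammatory signalling. In bulk tissue, fewer cells of a type and less RNA per cell cannot be told apart.

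Promoter windows from RefSeq on GRCm38.p6 were found for 6 of the 9 genes (Icam1, Sele, Selp, Itga4, Itgb7 and Madcam1). They are 250 bases before to 50 bases after the start site, and the first 280 bases are printed 5′ to 3′ on the strand of the gene, with the matches of the motifs in capitals. Icam1 and Sele are shown because both differed with outcome in the same direction, Itgb7 because its level went against theirs, and Madcam1 because it was near 0 in every library. Icam1 lies at chr9:21015690-21015969 (plus strand), Sele at chr1:164047984-164048263 (plus), Itgb7 at chr15:102231906-102232185 (minus) and Madcam1 at chr10:79664309-79664588 (plus).
Icam1: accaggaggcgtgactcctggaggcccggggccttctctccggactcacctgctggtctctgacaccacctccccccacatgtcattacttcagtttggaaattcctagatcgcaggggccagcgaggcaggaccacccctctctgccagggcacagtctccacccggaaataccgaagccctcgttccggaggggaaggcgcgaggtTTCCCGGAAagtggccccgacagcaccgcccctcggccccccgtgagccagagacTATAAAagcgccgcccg
Sele: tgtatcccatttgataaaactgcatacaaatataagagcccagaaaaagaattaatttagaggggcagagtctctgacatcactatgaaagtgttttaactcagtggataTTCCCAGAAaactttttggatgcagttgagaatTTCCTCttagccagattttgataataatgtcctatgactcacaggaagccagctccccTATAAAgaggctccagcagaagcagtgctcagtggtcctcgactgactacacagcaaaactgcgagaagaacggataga
Itgb7: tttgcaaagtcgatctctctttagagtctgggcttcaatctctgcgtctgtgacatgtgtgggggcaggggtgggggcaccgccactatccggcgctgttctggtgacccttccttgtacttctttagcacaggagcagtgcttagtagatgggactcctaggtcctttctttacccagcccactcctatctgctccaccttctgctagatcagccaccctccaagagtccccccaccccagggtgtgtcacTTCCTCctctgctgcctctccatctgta
Madcam1: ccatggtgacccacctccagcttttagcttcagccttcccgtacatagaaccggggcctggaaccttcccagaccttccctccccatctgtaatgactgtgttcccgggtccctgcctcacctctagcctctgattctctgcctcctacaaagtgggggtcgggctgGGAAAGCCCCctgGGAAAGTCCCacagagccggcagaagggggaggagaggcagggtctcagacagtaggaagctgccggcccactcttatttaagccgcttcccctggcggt
The motifs searched on both strands were the NF-kB consensus (by its name alone), TATAAA, the GAS palindrome TTCNNNGAA, a paired ISRE motif (by its name alone), the PU.1 core GAGGAA and the RUNX core TGTGGT. In the Icam1 window the capitals mark a GAS palindrome at -42 to -34 (bases counted from the RefSeq start site) and TATAAA at 14 to 19 after that site. The GENCODE start of Icam1, 21015985, lies beyond the last printed base, 21015969, so both matches are upstream of the GENCODE start. In the Sele window they mark a GAS palindrome at -140 to -132, a PU.1 core on the opposite strand at -107 to -102 and TATAAA at -49 to -44. The Itgb7 window holds a PU.1 core on the opposite strand at 3 to 8, and the Madcam1 window holds 2 matches of the NF-kB consensus on the opposite strand, at -83 to -74 and -70 to -61. Among the windows not printed, Itga4 held a RUNX core at -60 to -55 on the opposite strand and Selp held none of the 6 motifs. Of 32851 promoter windows of the same length, 8.46% held the NF-kB consensus, 13.6% TATAAA, 8.30% the GAS palindrome, 3.44% the paired ISRE motif, 28.3% the PU.1 core and 16.8% the RUNX core. A match is a description of letters and was not tested against the measured levels. Only exact matches of each pattern were marked, so a window without a match, such as those of Icam1 and Sele for NF-kB, can still hold a variant site.

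Totals lay between 25989217 and 31219650 counts per library. Levels are in CPM, the counts of a gene scaled to a common library total, on library sizes scaled by TMM factors, which correct for a few abundant genes taking up counts. These factors ranged from 0.692 to 1.22 and were low (0.698 to 0.730) in the 3 cured libraries. The make-up of the tissue moved with outcome. The 35 skeletal muscle genes took 29.2 to 31.2% of the counts in the cured libraries and 7.43 to 10.3% in the uncured ones, while the 16 gastric epithelial genes took 0.00169 to 0.00806% against 0.451 to 0.560%, and Gkn1, Gkn2, Tff1 and Muc5ac were at 0 in all 3 cured libraries. All 29 samples carry a label of tumor tissue, which these epithelial markers did not bear out in the cured mice. Among the other libraries of day 35, the gastric epithelial share was 0.00509% in anti-PD1 replicate 5 and 0.0973% in untreated replicate 2, with muscle shares of 29.0% and 27.4%, and it was 0.209 to 0.508% in the rest. The 14 endothelial genes took 0.0644 to 0.0940% of the raw counts in all 29 libraries. In scaled levels, 11 of these 14 were called lower and 1 higher in uncured than in cured mice (median log2 fold change -0.795, edgeR), and 13 of 14 had a positive sign in cured against untreated mice (median 0.34, with 2 called higher and 1 lower). The part of tissue make-up in the differences below was not tested. The libraries of day 21 and day 35 carry 2 separate series of identifiers in their labels, whose meaning is not given, so time cannot be told apart from what they stand for.

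Over the 29 libraries, the genes differed widely in level. Per kilobase of exon, the median was 22.2 CPM for Icam1, 18.8 for Itgb2, 12.5 for Vcam1, 6.59 for Itgb7, 2.67 for Selp, 2.15 for Itgal, 1.83 for Itga4, 1.15 for Sele and 0.0224 for Madcam1. The ratio of the highest to the lowest library was 20.2 for Vcam1, 8.13 for Icam1, 7.46 for Sele, 6.11 for Itgal and 3.64 to 4.81 for Selp, Itgb2, Itga4 and Itgb7. Vcam1 and Icam1 thus had the widest spread, and the plot of CPM by library shows that the cured mice set its lower end.

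**Figure D1:**
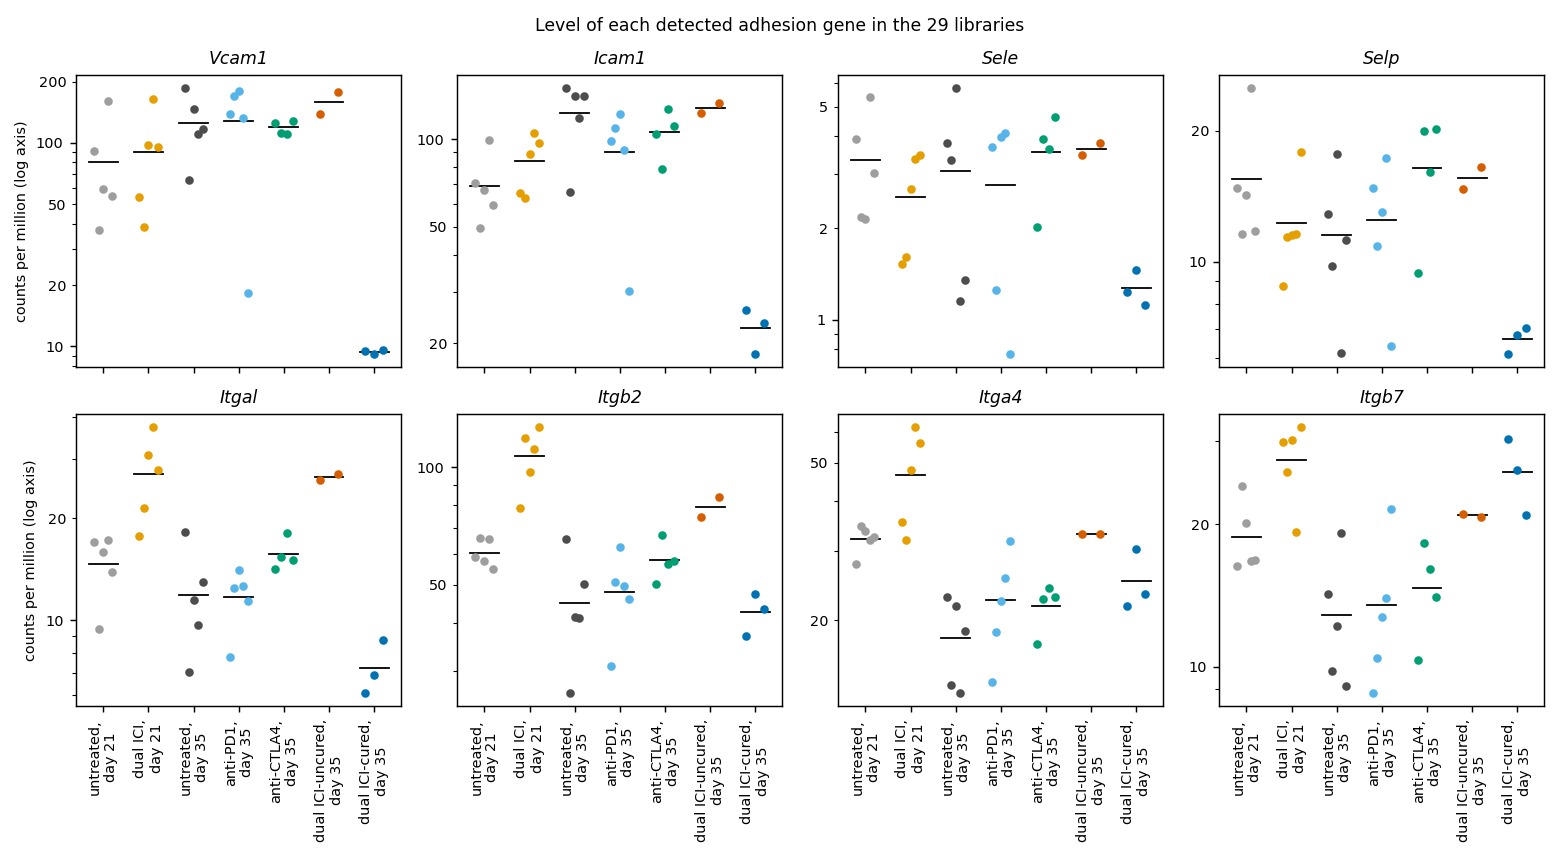
CPM (vertical, log axis) of the 8 detected genes in each of the 29 libraries, by group (horizontal). Points are mice and the line is the group mean. Vcam1 was 9.21 to 9.54 CPM in the 3 cured mice and 18.2 CPM in anti-PD1 replicate 5, against 37.1 to 186 CPM in the other 25 libraries.

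Vcam1 (chromosome 3, 116109949 to 116129688, minus strand) encodes the counter-receptor of VLA-4. It was 91.1, 37.1, 59.2, 161 and 54.8 CPM in the 5 untreated mice of day 21 and 54.0, 38.5, 97.1, 165 and 95.0 CPM in the 5 dual ICI mice of that day. The values at day 35 were 186, 65.5, 147, 110 and 116 CPM in untreated mice, 138, 170, 180, 133 and 18.2 CPM with anti-PD1, 125, 112, 111 and 128 CPM with anti-CTLA4 and 138 and 178 CPM in the uncured mice. The 3 cured mice were at 9.47, 9.21 and 9.54 CPM, below every other library of the series. The order of the group means was uncured (158 ± 28.0 CPM, SD, n = 2), anti-PD1 (128 ± 64.4, n = 5), untreated day 35 (125 ± 44.9, n = 5), anti-CTLA4 (119 ± 8.92, n = 4), dual ICI day 21 (89.9 ± 49.0, n = 5), untreated day 21 (80.6 ± 48.9, n = 5) and cured (9.41 ± 0.175, n = 3), and of these neighbours only untreated day 21 and cured did not overlap.

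Icam1 (chromosome 9, 21015985 to 21028817, plus strand), the counter-receptor of LFA-1, had a similar order. It was 70.5, 49.4, 67.2, 99.0 and 59.3 CPM in untreated and 65.5, 62.7, 89.0, 105 and 96.7 CPM in dual ICI mice of day 21. On day 35 it stood at 150, 65.9, 141, 118 and 140 CPM in untreated mice, 98.3, 109, 122, 91.8 and 30.3 CPM with anti-PD1, 104, 79.1, 127 and 111 CPM with anti-CTLA4 and 123 and 133 CPM in the uncured mice. The cured mice were at 26.0, 18.4 and 23.4 CPM, the lowest 3 values of the series, and the next was anti-PD1 replicate 5. The annotation places the antisense genes Gm43109 and Gm47079 opposite Vcam1 and Icam1. Whether counting used strand is not given in the sources used here.

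Madcam1 (chromosome 10, 79664559 to 79668537, plus strand) had 28 counts in all. It was at 0 in 11 libraries and at 1 to 3 counts in 18, and a count of 0 allows up to 0.0802 to 0.155 CPM (3 counts per library, counting error only). It did not pass the filter on low counts, was not tested, and no fold is given. The counter-receptor of the pair of Itga4 and Itgb7 was thus at or under the floor in every group, while the transcripts of both subunits were at 8.81 CPM or more in every library.

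Of the selectins, Selp (chromosome 1, 164115264 to 164150026, plus strand) was the more abundant. Its CPM was 14.8, 11.6, 14.2, 25.1 and 11.8 in untreated and 8.81, 11.4, 11.5, 11.6 and 17.9 in dual ICI mice of day 21. At day 35 it was 12.9, 9.76, 17.7, 6.17 and 11.2 in untreated mice, 14.8, 10.9, 13.0, 17.3 and 6.40 with anti-PD1, 9.43, 19.97, 16.0 and 20.2 with anti-CTLA4, 14.7 and 16.5 in the uncured and 6.14, 6.77 and 7.02 in the cured mice. The cured values were low but overlapped with those of the untreated mice of day 35. The annotation places Gm16587 and Gm16548 on the opposite strand of Selp.

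Sele (chromosome 1, 164048234 to 164057677, plus strand) was counted on only 15 to 197 reads per library, so its values carry more counting error. Its CPM was 3.92, 2.17, 2.15, 5.41 and 3.04 in untreated and 1.52, 1.603, 2.68, 3.37 and 3.47 in dual ICI mice of day 21. The groups of day 35 had 3.81, 3.33, 5.78, 1.15 and 1.35 in untreated mice, 3.70, 1.25, 3.97, 4.11 and 0.774 with anti-PD1, 2.02, 3.93, 3.63 and 4.62 with anti-CTLA4, 3.47 and 3.82 in the uncured and 1.23, 1.46 and 1.11 in the cured mice. Untreated replicates 4 and 5 of day 35 lay within the range of the cured mice.

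Among the integrin subunits, Itgb2 (chromosome 10, 77530252 to 77565708, plus strand), the beta chain shared by LFA-1 and the myeloid integrins, was 58.8, 65.8, 57.5, 65.4 and 54.9 CPM in untreated and 78.5, 119, 97.1, 112 and 127 CPM in dual ICI mice of day 21. The values at day 35 were 65.6, 26.4, 41.3, 41.2 and 50.2 CPM in untreated mice, 30.95, 50.9, 62.5, 49.6 and 46.1 CPM with anti-PD1, 50.2, 67.0, 56.5 and 57.4 CPM with anti-CTLA4, 74.6 and 84.0 CPM in the uncured and 37.0, 47.3 and 43.3 CPM in the cured mice. Dual ICI mice of day 21 lay above untreated mice of that day, and the uncured mice lay above all other libraries of day 35.

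Itgal (chromosome 7, 127296260 to 127335138, plus strand), the alpha chain of LFA-1, was 17.0, 9.41, 15.9, 17.2 and 13.9 CPM in untreated and 17.7, 21.5, 30.9, 37.2 and 27.7 CPM in dual ICI mice of day 21. On day 35 it stood at 18.2, 7.03, 11.5, 9.71 and 13.0 CPM in untreated mice, 7.78, 12.5, 14.1, 12.7 and 11.4 CPM with anti-PD1, 14.2, 15.4, 18.1 and 15.1 CPM with anti-CTLA4, 26.0 and 27.0 CPM in the uncured and 6.09, 6.87 and 8.77 CPM in the cured mice. The uncured mice lay above all untreated mice of day 35, and 2 of the 3 cured mice lay below them.

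Itga4 (chromosome 2, 79255426 to 79333123, plus strand), the alpha chain of VLA-4, was 27.8, 34.6, 33.5, 31.9 and 32.5 CPM in untreated and 35.4, 31.99, 48.0, 61.5 and 56.3 CPM in dual ICI mice of day 21. At day 35 it was 22.9, 13.7, 21.7, 13.1 and 18.8 CPM in untreated mice, 14.0, 18.6, 22.4, 25.6 and 31.8 CPM with anti-PD1, 17.4, 22.6, 24.1 and 22.9 CPM with anti-CTLA4, 33.0 and 33.0 CPM in the uncured and 21.8, 30.4 and 23.3 CPM in the cured mice. Cerkl overlaps Itga4 on the opposite strand.

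Itgb7 (chromosome 15, 102215995 to 102231944, minus strand), which pairs with Itga4 or with Itgae, was 16.4, 24.0, 20.1, 16.7 and 16.8 CPM in untreated and 29.8, 25.8, 30.0, 19.2 and 32.03 CPM in dual ICI mice of day 21. The groups of day 35 had 14.2, 9.80, 12.2, 19.2 and 9.10 CPM in untreated mice, 8.81, 10.5, 12.7, 14.0 and 21.5 CPM with anti-PD1, 10.3, 18.3, 16.1 and 14.1 CPM with anti-CTLA4, 20.99 and 20.7 CPM in the uncured and 30.2, 26.1 and 20.9 CPM in the cured mice. Among the 8 detected genes, Itgb7 was the one whose mean at day 35 was highest in the cured group (25.7 ± 4.65 CPM, n = 3). Within the anti-PD1 group, replicate 5 held the highest Itgb7 and Itga4 and the lowest Vcam1, Icam1, Sele and Selp. The high ranks, but not the low ones, depended on the TMM factors. Scaled by library totals alone, Itgb7 was 25.16 and 25.36 CPM in the uncured mice. The cured mice then had 21.07, 19.03 and 15.16 CPM. On that scale anti-PD1 replicate 5 was highest in its group for neither Itgb7 nor Itga4. It was still lowest there for Vcam1, Icam1, Sele and Selp.

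Ordered by group mean, Vcam1, Icam1 and Sele were highest in the uncured mice, Selp with anti-CTLA4, and all 4 integrin subunits in dual ICI mice of day 21. The lowest mean was that of the cured mice for all genes except Itga4 and Itgb7, which were lowest in untreated mice of day 35. Neighbours in these orders overlapped in nearly every case. The exceptions were the cured mice below the next group for Vcam1, Icam1 and Sele, and the uncured mice above the next group for Itgal (anti-CTLA4) and Itgb2 (untreated day 21). Without replicate 5, the mean of anti-PD1 was 155 ± 23.1 CPM for Vcam1 and 105 ± 13.0 CPM for Icam1 (SD, n = 4), and without replicate 2 that of untreated mice of day 35 was 140 ± 34.8 CPM and 137 ± 13.5 CPM (n = 4).

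At day 21, dual ICI was compared with no treatment to ask what differed early in therapy. Itgb2 rose 1.77-fold (log2 fold change 0.82, SE 0.14, adjusted p = 0.0260, edgeR's quasi-likelihood test, Benjamini-Hochberg adjusted across the whole table), with no overlap between the 5 and 5 mice. Itgal was 1.85-fold higher (0.89, SE 0.22) and did not overlap either, but its adjusted p was 0.121 by edgeR and 0.0107 by DESeq2. Itga4 (0.55, SE 0.18, adjusted p = 0.268) and Itgb7 (0.54, SE 0.16, adjusted p = 0.206) were higher in mean with overlapping groups. Of the counter-receptors and selectins, Icam1 was at 0.29 (SE 0.20), Selp at -0.33 (SE 0.24) and Sele at -0.38 (SE 0.33), and Vcam1 differed by less than its SE. Thus 1 of 8 genes tested was called, against 0.574% of all 15503 genes tested, 4 of 8 had an unadjusted p under 0.05, against 10.7%, and 2 of 8 lay higher without overlap, against 1.83%. The median log2 fold change of the 8 was 0.42, against 0.02 over all genes. Ptprc, the CD45 antigen of all leukocytes, was itself at 0.65 (SE 0.19, adjusted p = 0.188). All 8 genes of the leukocyte marker list had a positive sign (median 0.70, with 2 called by edgeR and 7 by DESeq2), as did 11 of 12 T cell genes (median 1.22, with 3 called by edgeR and 8 higher without overlap). Their part in the integrin values was not tested. The call of Itgb2 was lost (adjusted p = 0.0566 to 0.0957) without untreated replicate 1, 3, 4 or 5 or dual ICI replicate 3 or 5, and, at an unchanged fold, when libraries were scaled by their totals alone (adjusted p = 0.178).

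At day 35, the uncured dual ICI mice were compared with untreated mice. All 4 integrin subunits were higher without overlap between the 2 and 5 mice: Itgal 2.22-fold (log2 1.15, SE 0.30), Itga4 1.82-fold (0.86, SE 0.24), Itgb2 1.76-fold (0.81, SE 0.29) and Itgb7 1.61-fold (0.69, SE 0.28). None passed the adjusted threshold (adjusted p = 0.734 for each, edgeR), and by DESeq2 the adjusted p was 0.239 to 0.667. With edgeR 0% of all 16156 genes were called in this comparison, 4.87% had an unadjusted p under 0.05, as all 4 integrin subunits did, and 9.22% lay higher without overlap (DESeq2 called 18 genes). Of the counter-receptors and selectins, Selp was at 0.42 (SE 0.34), and Vcam1, Icam1 and Sele differed by less than their SE. Ptprc was at 0.87 (SE 0.30, adjusted p = 0.734), beside the integrins. Of other marker lists, with no call by edgeR, 11 of 12 T cell genes had a positive sign (median 0.92), whereas all 35 skeletal muscle genes (median -1.15) and all 12 adipocyte genes (median -1.14) had a negative one, and their part was not tested. By the interaction of dual ICI with day none of the 8 genes was called (adjusted p = 0.707 to 0.999, edgeR). Of all 16542 genes 0 (0%) were called, 6.35% had an unadjusted p under 0.05 and DESeq2 called 1 gene. Day 35 enters this interaction with the 2 uncured mice only. No outcome is given for the mice of day 21. The numbers in the descriptions of their dual ICI libraries skip some values, and how these mice were chosen is not given. In the schedule of the study the mice of day 35 also had later doses. Day, outcome and dosing thus cannot be told apart, and with 2 mice a missing call says little.

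With antibodies given singly, no adhesion gene was called. Against untreated mice of day 35, anti-PD1 had Icam1 at -0.45 (SE 0.34) and Itga4 at 0.32 (SE 0.24), and the other 6 genes differed by less than their SE. Without anti-PD1 replicate 5, Icam1 was at -0.23. Anti-CTLA4 had Selp at 0.49 (SE 0.30), Itgal at 0.38 (SE 0.24), Itgb2 at 0.35 (SE 0.22), Itga4 at 0.25 (SE 0.19) and Icam1 at -0.23 (SE 0.23). All adjusted p-values of these genes were 1.00 with edgeR in both comparisons. No gene was called in either (0% of 15640 and 0% of 15781 genes, also 0 with DESeq2), and 1.31% and 0.811% of genes had an unadjusted p under 0.05, among them none of the 8.

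The cured dual ICI mice were compared with the untreated mice of the same day. Vcam1 was 13.0-fold lower (log2 fold change -3.70, SE 0.33, adjusted p = 1.29e-04) and Icam1 5.35-fold lower (-2.42, SE 0.28, adjusted p = 2.34e-04), both without overlap. Itgb7 was 2.03-fold higher (1.02, SE 0.24, adjusted p = 0.00866), also without overlap. So 3 of 8 genes were called, against 44.7% of all 15816 genes tested (18.0% higher and 26.7% lower), and these 3 did not overlap, against 47.2%. The other genes did not pass: Sele was at -1.26 (SE 0.54, adjusted p = 0.0815), Selp at -0.77 (SE 0.30, adjusted p = 0.0607), Itgal at -0.69 (SE 0.29, adjusted p = 0.0761) and Itga4 at 0.50 (SE 0.22, adjusted p = 0.0862), while Itgb2 and Ptprc differed by less than their SE. By DESeq2, Sele (adjusted p = 0.0409) and Selp (0.0430) passed, and in the edgeR fit of all 29 libraries Sele (0.0497), Selp (0.0487) and Itgal (0.0288) did. The median of the 8 was -0.73, against -0.05 over all genes. Leaving out untreated replicate 2, with its low gastric epithelial share, brought Selp (adjusted p = 0.0476) and Itgal (0.0157) past the threshold, and leaving out untreated replicate 4 brought Sele (0.0394) and Selp (0.0150) past it. Scaled by library totals alone, which shifts the median of all genes in this comparison to -0.64, Itgb7 was at 0.44 (adjusted p = 0.206), so its rise was seen relative to the other genes of the library, and Itga4 was at -0.12.

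**Figure D2:**
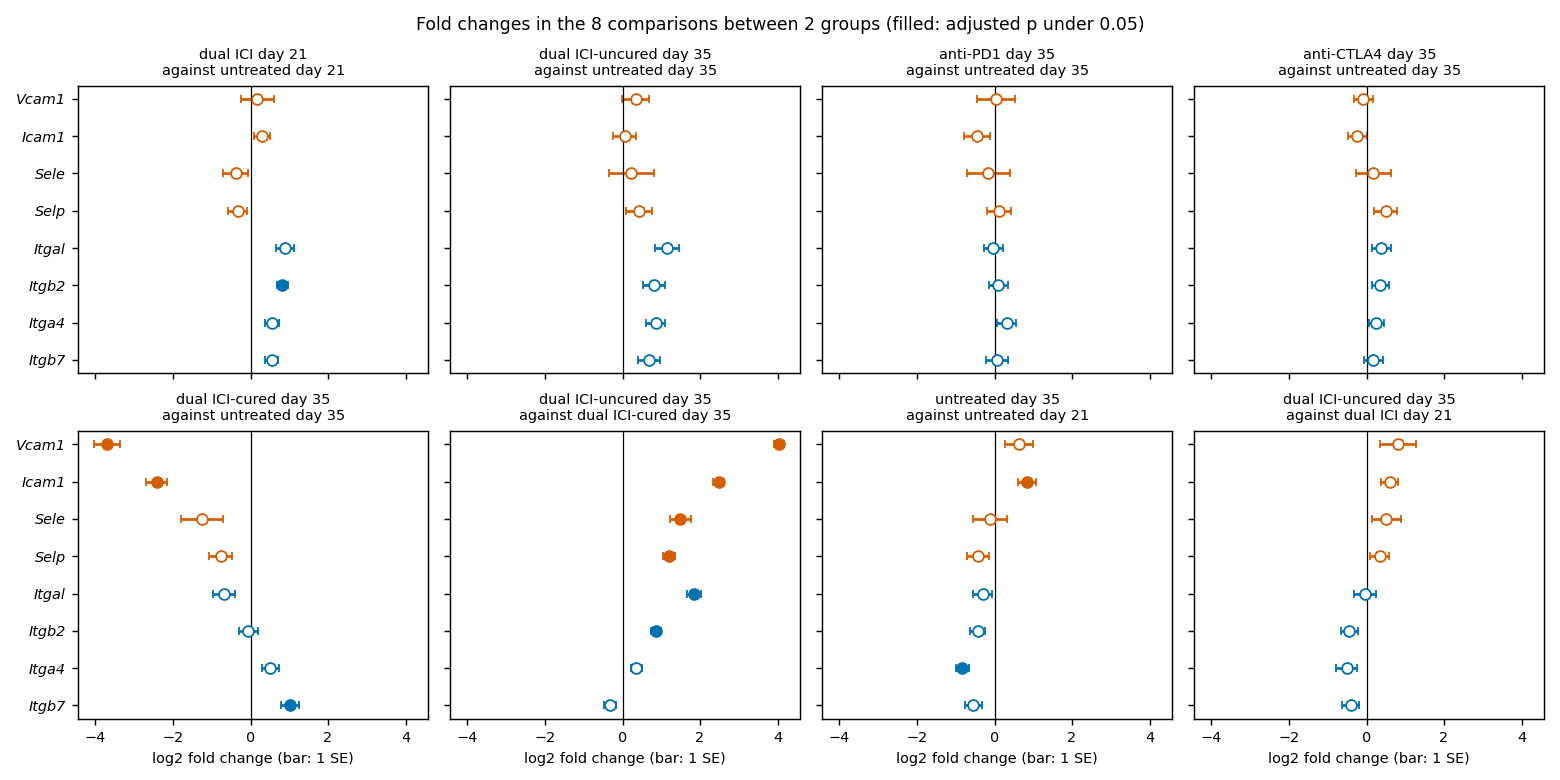
Log2 fold change (horizontal, bar 1 SE) of the 8 tested genes in each of the 8 comparisons between 2 groups, with Vcam1, Icam1, Sele and Selp in orange and integrin subunits in blue, and filled points for an adjusted p under 0.05. Against untreated mice the cured mice had Vcam1 at -3.70 and Itgb7 at 1.02, while in the uncured mice the 4 integrin subunits lay at 0.69 to 1.15 with open points.

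Uncured and cured mice had the same treatment and day and differed in outcome. Uncured mice had higher Vcam1 (16.5-fold, log2 4.05, SE 0.13, adjusted p = 4.57e-07), Icam1 (5.57-fold, 2.48, SE 0.13, adjusted p = 1.2e-06), Itgal (3.59-fold, 1.84, SE 0.17, adjusted p = 1.94e-05), Sele (2.81-fold, 1.49, SE 0.27, adjusted p = 0.00110), Selp (2.30-fold, 1.2, SE 0.16, adjusted p = 1.81e-04) and Itgb2 (1.83-fold, 0.87, SE 0.13, adjusted p = 3.10e-04), all by edgeR and without overlap. Itga4 was at 0.36 (SE 0.15, adjusted p = 0.0630) and Itgb7 at -0.33 (SE 0.15, adjusted p = 0.0853). Thus 6 of 8 genes were called, against 70.0% of all 15796 genes tested (36.9% higher and 33.1% lower), which is near the share of all genes, and 7 of 8 did not overlap, against 81.1%. Scaled by library totals alone, Itgb7 turned to 0.46 (adjusted p = 0.0191), and the median of all genes moved from 0.05 to 0.84. These comparisons at day 35 share their samples: the untreated mice enter 4 of them, and the uncured and cured mice enter more than one each.

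Over time, untreated mice of day 35 were compared with those of day 21. Icam1 rose 1.78-fold (0.83, SE 0.23, adjusted p = 0.0406) and Itga4 fell by 0.83 on the log2 scale (SE 0.16, adjusted p = 0.0124, no overlap), so 2 of 8 genes were called, against 10.8% of all 15604 genes tested, and 1 lay lower without overlap, against 5.20%. Itgb7 (-0.55, SE 0.21, adjusted p = 0.110), Itgb2 (-0.43, SE 0.19, adjusted p = 0.151), Selp (-0.42, SE 0.28), Itgal (-0.31, SE 0.24) and Vcam1 (0.63, SE 0.37) did not pass. Ptprc fell by 0.82 (SE 0.21, adjusted p = 0.0312). The call of Icam1 was lost (adjusted p = 0.0738 to 0.102) without any 1 of untreated day 35 replicates 1, 3, 4 or 5 or of untreated day 21 replicates 1, 2, 3 or 5, and both calls were lost on library totals alone (adjusted p = 0.0900 for Icam1 and 0.104 for Itga4).

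From dual ICI at day 21 to uncured dual ICI at day 35, none of the 8 genes was called by edgeR (5.31% of all 16135 genes) and none by DESeq2. The later mice were only those not cured and had been dosed further, so time, outcome and dosing cannot be told apart here. Only Icam1 had an unadjusted p under 0.05 (28.8% of all genes) and lay higher without overlap (19.1%). Icam1 was at 0.60 (SE 0.22, adjusted p = 0.124) and Vcam1 at 0.80 (SE 0.46, adjusted p = 0.283), while Itga4 (-0.51, SE 0.27), Itgb2 (-0.44, SE 0.21) and Itgb7 (-0.41, SE 0.22) had negative signs. Without dual ICI day 21 replicate 4, whose Vcam1 was 165 CPM, 3 of the genes passed: Vcam1 (1.15, adjusted p = 0.0442), Icam1 (0.71, adjusted p = 0.0380) and Itgb7 (-0.50, adjusted p = 0.0477). Under the same setting 4006 genes were called in all, against 857 with every library, so the added calls of these genes came with added calls across the table.

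Each gene was then set against a marker of 1 cell type known to carry it, as a difference of log2 CPM within a library, with no test. Vcam1 and Icam1 have other carriers too, so their values are not levels per endothelial cell. The integrin subunits were set against Ptprc, which spanned 27.0 to 165 CPM. Itgb2 kept close to Ptprc at day 35, with group means of -0.06 to 0.07, and was lower relative to it in untreated mice of day 21 (-0.38 ± 0.12, SD, n = 5). Relative to Ptprc, the gain of Itgb2 under dual ICI at day 21 was 0.20, against 0.80 without the marker, and the groups overlapped. For untreated mice of day 35 against day 21, Itga4 differed by 0.01 relative to Ptprc with overlap, against -0.86 without the marker. In the same comparison Itgal and Itgb7 were 0.53 and 0.30 higher relative to Ptprc with overlap, and Itgb2 0.39 higher without overlap. For the uncured against the untreated mice of day 35, Itgb2, Itga4 and Itgb7 differed by -0.07, -0.04 and -0.20 relative to Ptprc and overlapped, whereas Itgal was 0.28 higher without overlap (-1.63 ± 0.07, n = 2, against -1.91 ± 0.07, n = 5).

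In the cured mice the integrin subunits parted relative to Ptprc. Against untreated mice of day 35, Itgal was lower by 0.69 without overlap (-2.60 ± 0.18, n = 3), Itgb2 differed by -0.06, and Itga4 and Itgb7 were higher by 0.47 and 1.00 with overlapping groups. Against the uncured mice, Itga4 was higher by 0.51 and Itgb7 by 1.198 in the cured, both without overlap. The log2 ratio of Itgal to Itgb2, the subunits of LFA-1, was -2.55 ± 0.24 (n = 3) in cured mice, -1.58 ± 0.08 (n = 2) in uncured mice and -1.92 ± 0.10 (n = 5) in untreated mice of day 35. Single mice of day 21 were as low as the cured ones, with -2.80 in untreated replicate 2 and -2.47 in dual ICI replicate 2, and anti-PD1 replicate 5 was at -2.01, against -2.15 to -1.97 over its group.

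The counter-receptors and selectins were set against the mean of 14 endothelial genes. Relative to these, Vcam1 was 4.02 lower in cured than in untreated mice of day 35 (-2.55 ± 0.06, n = 3, against 1.46 ± 0.83, n = 5) and Icam1 2.78 lower (-1.31 ± 0.17 against 1.47 ± 0.77), both without overlap. Selp was 1.09 lower without overlap and Sele 1.38 lower with overlap. The differences of these 4 genes were larger relative to the endothelial genes than on the log2 CPM scale, where the same means differed by -3.64 (Vcam1), -2.40 (Icam1), -0.71 (Selp) and -1.002 (Sele). The endothelial mean was itself higher in cured than in untreated mice of day 35 (5.80 against 5.42), so subtracting it enlarges each fall by construction. In anti-PD1 replicate 5, Vcam1 lay between the cured and all other libraries on this scale too, as the plot of relative levels shows.

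**Figure D3:**
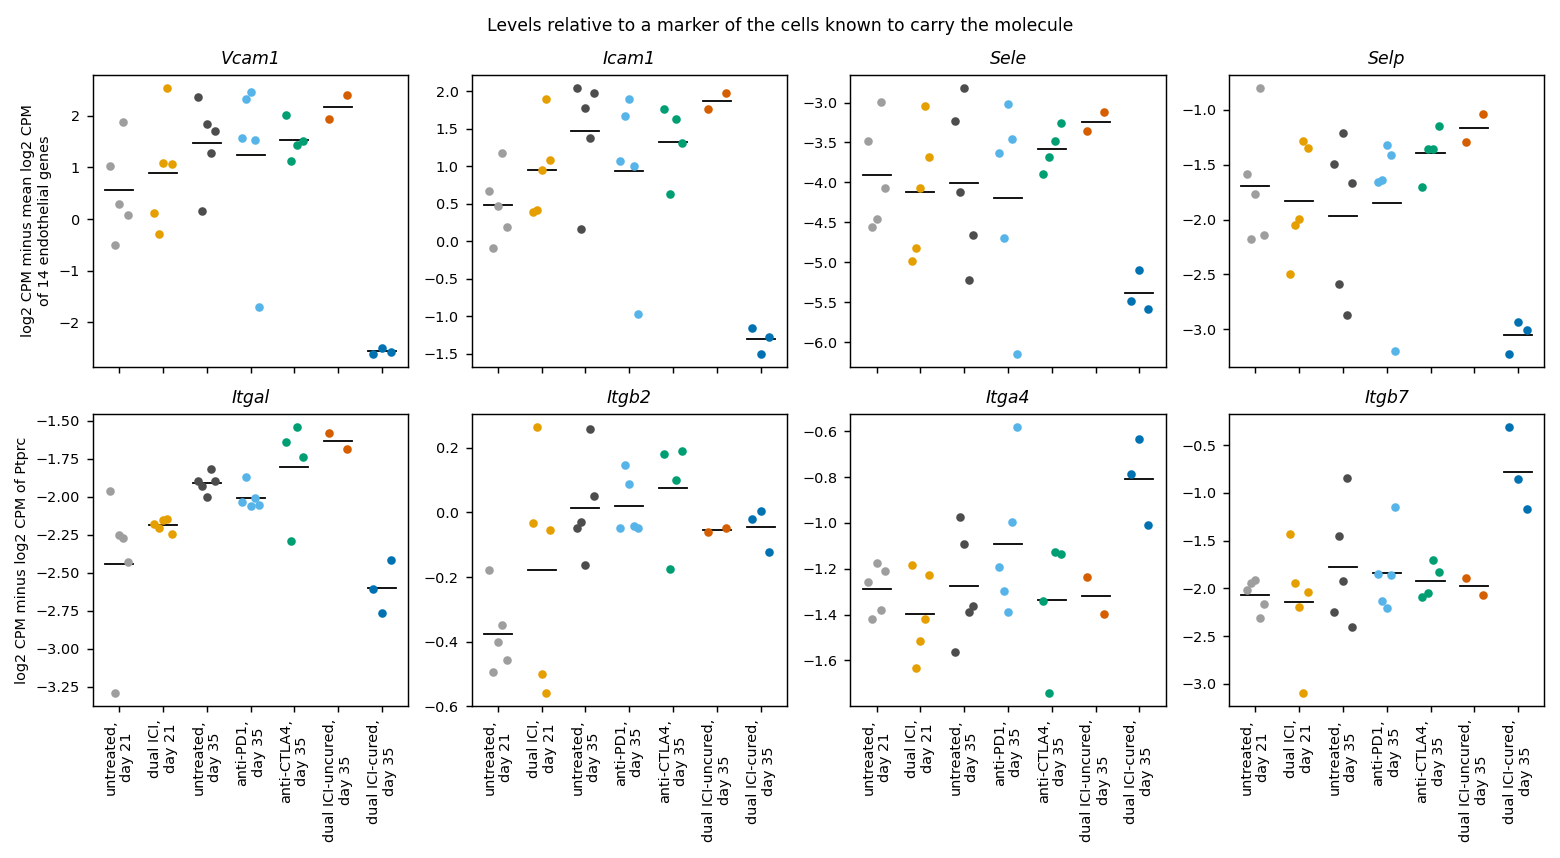
Log2 CPM of each gene minus the mean log2 CPM of 14 endothelial genes (upper row) or minus log2 CPM of Ptprc (lower row), per library and group, with the group mean as a line. Relative to Ptprc, the mean of Itgal was lowest in cured mice (-2.60), where that of Itgb7 was highest (-0.78).

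Levels of the 8 genes were also followed beside the marker lists. Over the 29 libraries, Vcam1 and Icam1 had Pearson correlations of 0.95 and 0.96 with the mean log2 CPM of the gastric epithelial list, 0.96 and 0.96 with the neutrophil list, 0.66 and 0.64 with the mesothelial list, -0.72 and -0.73 with the endothelial list, and -0.87 and -0.87 with the skeletal muscle list. Sele and Selp had 0.65 and 0.68 with the gastric epithelial list and -0.31 and -0.31 with the endothelial list. Itgb2 and Itgal had 0.95 and 0.88 with the leukocyte list, while Itga4 had 0.73 and Itgb7 0.48. These are descriptions over libraries that share groups, tissue make-up and the scaling of each library, and the cured mice and anti-PD1 replicate 5 sit at one end of them. The neutrophil gene Ngp was at 0 in the cured libraries, and the platelet gene Gp9 in the uncured ones. The summed level of the platelet genes, which could bear on Selp, was 19.2 to 58.5 CPM over all libraries.

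**Figure D4:**
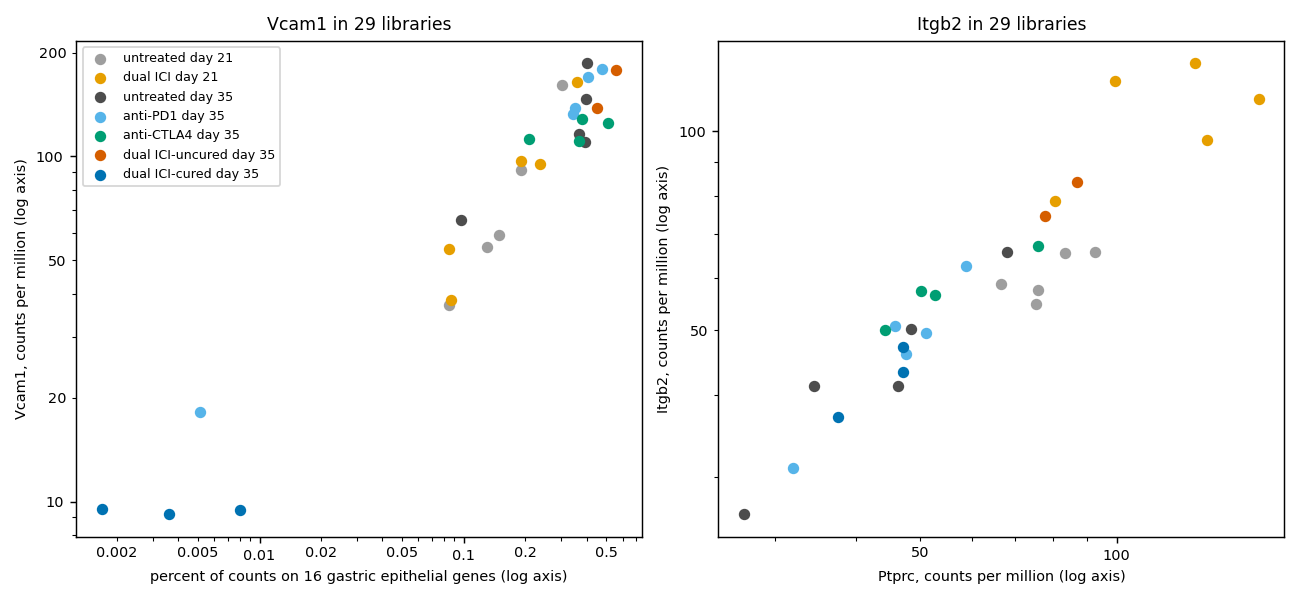
Left, Vcam1 (vertical, CPM) against the percent of counts on 16 gastric epithelial genes (horizontal), and right, Itgb2 (vertical, CPM) against Ptprc (horizontal, CPM), all on log axes, with each point a library coloured by group. Below 0.01% of gastric epithelial counts lie the 3 cured libraries and anti-PD1 replicate 5, with Vcam1 at 9.21 to 18.2 CPM.

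The genes most like each member over the 29 libraries, by Pearson correlation of log2 CPM among 16700 genes, were named with no test. For Vcam1 they included Tcf7 (a T cell transcription factor) and Tes, each at 0.98. With the T cell marker list as a whole Vcam1 was at 0.45, against 0.95 with the gastric epithelial list. For Icam1 the nearest genes were St3gal4 (a sialyltransferase that makes selectin ligands), Tmem176a and Plscr1, each at 0.98. Vcam1 and Icam1 correlated at 0.96 with each other and at 0.92 as deviations from the group means. Without the 3 cured libraries and anti-PD1 replicate 5, a choice made after seeing the data, they correlated at 0.87 over 25 libraries, and Tcf7 with Vcam1 at 0.96.

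For Sele the most like gene was Selp (0.86), followed by D030056L22Rik (0.86) and Il1r1 (0.86), the receptor of interleukin-1. For Selp they were B4galt5, Chsy1 and Sele, at 0.86 to 0.87. The selectins thus had each other among their 3 nearest genes, and they still correlated at 0.79 over the 25 libraries. The genes nearest to Itgal included Btnl2 and Irf8 (a myeloid transcription factor), at 0.92 to 0.93, and Itgb2 was nearest to Nckap1l, Cd84 and Arhgap30, at 0.95. Itga4 was nearest to Trim30d, Ptafr and Cd180, at 0.92, and Itgb7 to Pik3cd, P2rx1 and Ccr3 (an eosinophil chemokine receptor), at 0.89 to 0.91. Between the integrin subunits and Vcam1 the correlations ran from -0.52 (Itgb7) to 0.54 (Itgal).

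Beyond the 9 genes, 5 lists of the same pathway were followed. Their counts stand beside calls for 0.574% of all genes under dual ICI at day 21, 44.7% in cured against untreated mice (18.0% higher and 26.7% lower), 70.0% in uncured against cured mice (36.9% higher and 33.1% lower) and 10.8% over time in untreated mice. In the list of selectin ligands and L-selectin, dual ICI at day 21 gave 0 higher and 1 lower call of 13 genes tested: Podxl, a sialomucin of endothelium, fell by 0.63 (SE 0.12, adjusted p = 0.0418). In cured against untreated mice 1 rose and 4 fell, among them Cd44, the hyaluronan receptor (-2.58, adjusted p = 3.58e-04), St3gal4 (-2.64, adjusted p = 3.24e-04) and Chst4, a sulfotransferase of L-selectin ligands (-2.72, adjusted p = 0.00254), while Cd34, a sialomucin of endothelium and progenitors, rose by 1.10 (adjusted p = 0.00143). In uncured against cured mice 9 of 13 were higher and 2 lower, against 36.9% and 33.1% of all genes, with Cd44 at 3.02, St3gal4 at 2.81, Chst4 at 3.42 and Cd34 at -1.30. From day 21 to day 35 of untreated mice, Cd34 (-1.01, adjusted p = 0.0146) and Podxl (-0.58, adjusted p = 0.0299) fell.

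The list named other leukocyte integrins has 13 genes, is not confined to leukocytes and shares a gene with the platelet marker list. None of the 13 was called at day 21 under dual ICI by edgeR (3 had an unadjusted p under 0.05 and DESeq2 called 2). The smallest p was that of Itgam, the alpha chain of Mac-1 (0.72, SE 0.20, adjusted p = 0.162). In cured against untreated mice 1 rose and 6 fell of 13, against 18.0% and 26.7% of all genes, among them Itgae (-2.29, adjusted p = 4.06e-04), the other alpha partner of Itgb7, Itgax (-1.83, adjusted p = 0.00257), the alpha chain of a dendritic and macrophage integrin, and the collagen receptor chains Itga1 (-1.44, adjusted p = 0.00337) and Itga2 (-3.32, adjusted p = 0.00459). Itgb7 and its partner Itgae thus changed in opposite directions in the cured mice. In uncured against cured mice 9 were higher and 1 lower, with Itgax at 2.71, Itga6 at 1.82, Itga1 at 2.15 and Itga2 at 4.02. Over time in untreated mice, Itgb3 (-0.92, adjusted p = 0.0226) and Itga9 (-0.43, adjusted p = 0.0426) fell, of 12 tested.

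In the list of integrin activation and signalling, 1 of 18 rose under dual ICI at day 21: Coro1a, an actin regulator of leukocytes (0.80, SE 0.13, adjusted p = 0.0240). There, 16 of 18 genes had a positive sign (54.6% of all genes did), with a median of 0.40. In cured against untreated mice 3 rose and 6 fell, among them Cytip (-1.63, adjusted p = 3.84e-04), Skap2, an adaptor of integrin activation (-1.70, adjusted p = 6.45e-04), Vav1 (-1.22, adjusted p = 0.00885) and, in the other direction, Cyth1 (0.65, adjusted p = 0.00547), a cytohesin that binds the beta chain of LFA-1. In uncured against cured mice 13 were higher and 3 lower, with Skap2 at 2.01, Vav1 at 1.84, Fyb at 1.43 and Cytip at 2.13. Rasgrp4 fell over time in untreated mice (-1.004, adjusted p = 0.0182), the only call of that list there.

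The other endothelial adhesion and junction molecules went both ways. Under dual ICI at day 21, Aoc3, the vascular adhesion protein VAP-1 that fat cells also carry, fell by 0.81 (SE 0.15, adjusted p = 0.0418), the only call of 17. In cured against untreated mice 5 rose and 6 fell: Aoc3 rose by 1.26 (adjusted p = 0.00274), whereas Cx3cl1, a membrane-bound chemokine (-3.44, adjusted p = 1.89e-04), F11r, the junction protein JAM-A (-2.21, adjusted p = 2.10e-04), and Alcam (-3.09, adjusted p = 4.78e-04) fell. F11r and Alcam are also carried by epithelial cells. In uncured against cured mice 6 were higher, with Alcam at 3.77, Cx3cl1 at 3.86 and F11r at 2.42, and 9 lower, with Cd99l2 at -1.56. Over time in untreated mice Aoc3 (-1.55, adjusted p = 0.00486) and Jam2 (-0.68, adjusted p = 0.0320) fell and F11r rose (0.70, adjusted p = 0.0482). In uncured mice of day 35 against dual ICI of day 21, Aoc3 was called lower (-0.97, adjusted p = 0.0348) and no gene of the other 4 lists was called by edgeR, where 1 to 5 genes per list had an unadjusted p under 0.05 and DESeq2 called 1 to 3. Of the 12 adipocyte marker genes, 11 had a negative sign under dual ICI at day 21 (median -0.70, with 3 lower without overlap), all 12 a positive one in cured against untreated mice (median 0.73, with 2 called) and all 12 a negative one in uncured mice against dual ICI of day 21 (median -0.79). Their part in the values of Aoc3 was not tested.

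Of 13 tested lymphoid homing receptors and signals, none was called under dual ICI at day 21 by edgeR (3 had an unadjusted p under 0.05 and DESeq2 called 2), the smallest p being that of Ccr10 (-1.01, SE 0.28, adjusted p = 0.164). In cured against untreated mice 1 rose and 5 fell, among them Ccr7, the homing receptor of naive and central memory T cells (-2.73, adjusted p = 0.00101), Cxcl13, the B cell chemokine (-3.06, adjusted p = 0.00145), Cxcr4 (-1.25, adjusted p = 0.00508) and Ccl28, a mucosal epithelial chemokine (-3.18, adjusted p = 0.00754). In uncured against cured mice 7 were higher and 3 lower, with Ccl28 at 3.98, Cxcr4 at 1.98, Ccr7 at 3.41 and Klf2, a transcription factor of quiescent T cells and endothelium, at -1.49. The lists had medians of 0.67 to 1.22 in that comparison, apart from the endothelial list at -0.43, against 0.05 over all genes. In the comparisons of single antibodies or of uncured mice with untreated mice, no gene of the 5 lists was called by edgeR or DESeq2, and 0 to 4 genes of a list had an unadjusted p under 0.05. In uncured against untreated mice of day 35 the smallest p of each list was that of Selplg, the P-selectin ligand PSGL-1 (0.76), Itgae (1.05), Dock2 (0.77), Esam (-0.50) and Ccr10 (0.92), each with an adjusted p of 0.734 by edgeR.

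**Figure D5:**
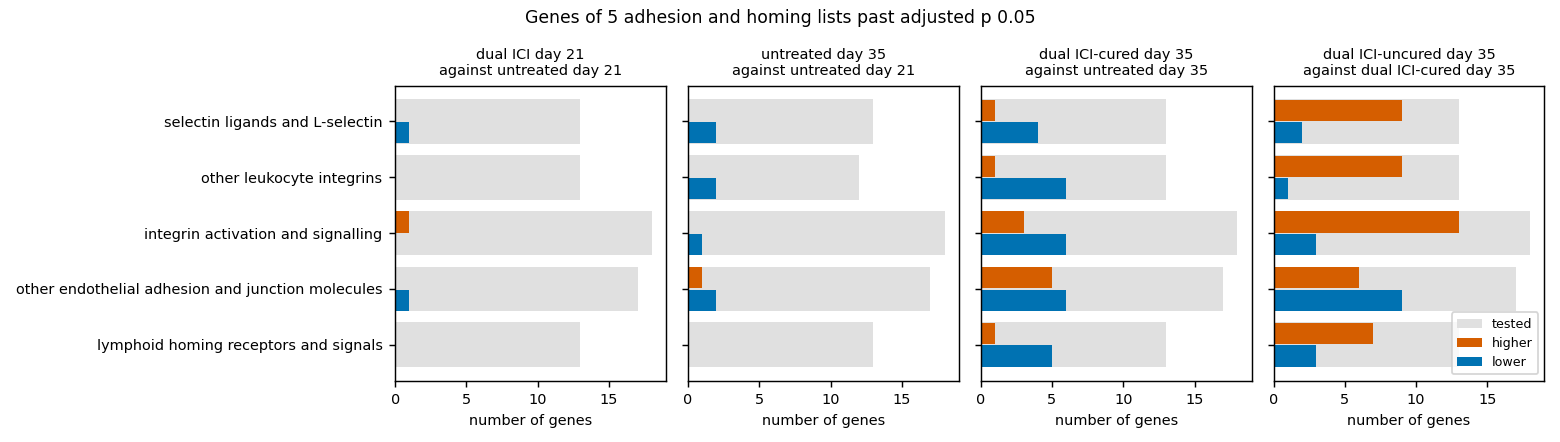
Number of genes (horizontal) of the 5 lists that were tested (grey) and that passed an adjusted p of 0.05 with a higher (orange) or lower (blue) level, in 4 comparisons. Most calls lie in the comparisons with cured mice, where 44.7% and 70.0% of all genes were called.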

How the data were processed

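RNA was taken from stripped peritoneum, 1 library per mouse, and the deposited table holds raw read counts per gene, which the authors made, per the labels, with STAR 2.7.0f and featureCounts 1.6.4 on mm10. The methods of the study name another version of the aligner and another counting tool, and whether reads were counted by strand is not given in the sources used here. Groups were read from the titles, with the cured and uncured mice split by the mouse numbers of the study. Each comparison was fitted on its own groups with edgeR 4.0.16 in R 4.3.3 (TMM, filterByExpr by group, quasi-likelihood test, Benjamini-Hochberg adjustment over all genes tested, threshold 0.05). The SE is the absolute log2 fold change over the square root of F. Depth was 25989217 to 31219650 counts per library, and p-values measure the spread between mice. DESeq2 1.42.0, other scalings and filters, 1 fit of all 29 libraries, a replicate block and leaving out each library were the alternatives, and a single gene was followed through them only where its log2 fold change exceeded its SE. Scaling by library totals and the correlations over 25 libraries were added after seeing the data. Of each pathway list the genes past the threshold are named (the 4 with the smallest p where more passed, the 1 with the smallest p where none did), and for each member the 3 genes with the highest correlation, of which some are not reported here. The 9 genes and all lists were chosen with earlier results of these data known. Positions are from GENCODE vM21 on GRCm38 and promoters from RefSeq. Other tools were Python 3.11.15, numpy 2.4.6, pandas 2.3.3 and matplotlib 3.10.9.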

Additional observations from a re-analysis of the deposited data

Results flagged for a closer look

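Each detected gene was checked in the 5 groups of 4 or 5 mice for 1 mouse far from the others, by Dixon's criterion, which chance meets in about 1 of 20 groups, and 2 of 40 were set apart. Vcam1 was 18.2 CPM in anti-PD1 replicate 5, against 133 to 180 CPM in the other 4 mice, a gap of 0.711 of the whole range. The same library had 29.0% of its counts on skeletal muscle genes and 0.00509% on gastric epithelial genes, and the part of these shares in the Vcam1 value was not tested. The study counted 1 cured mouse in this group, and the labels do not say whether it was replicate 5. Selp was 25.1 CPM in untreated day 21 replicate 4, against 11.6 to 14.8 CPM in the other 4 mice, a gap of 0.762 of the range.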

How the results depend on the processing

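Of the 8 genes tested, the number called in dual ICI against untreated mice at day 21 (1 as reported) was 2 by DESeq2, 2 with the replicate block (Itgal in both, adjusted p = 0.0107 and 0.0430) and 0 with libraries scaled by their totals. In cured against untreated mice (3) it was 5 by DESeq2, 6 in the fit of all 29 libraries and 5 on library totals. In untreated day 35 against day 21 (2) it was 0 on library totals, and in uncured day 35 against dual ICI day 21 (0) it was 1 with the replicate block (Vcam1, 1.11, adjusted p = 0.00689). Leaving out 1 library gave 0 to 1 calls in dual ICI against untreated at day 21, 3 to 5 in cured against untreated, 6 to 7 in uncured against cured, 1 to 2 in untreated day 35 against day 21, 0 to 3 in uncured day 35 against dual ICI day 21, and 0 to 0 for uncured, anti-PD1 and anti-CTLA4 against untreated and for the interaction. In uncured against cured mice the added call was Itga4 without cured replicate 3 (0.51, adjusted p = 0.00607) and Itgb7 without cured replicate 4 (-0.48, adjusted p = 0.0205), and in untreated day 35 against day 21 Itgb7 was gained without untreated day 35 replicate 4 (-0.74, adjusted p = 0.0364).

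Signs turned for Selp in dual ICI against untreated at day 35 when cured and uncured mice were merged (-0.18), and on library totals for Itga4 in cured against untreated (-0.12) and Itgb7 in uncured against cured (0.46). Itga4 passed the threshold in uncured against cured mice with upper quartile scaling (0.42), without a filter (0.38), with at least 10 counts in every library (0.43) and on library totals (1.14). Relative to the leukocyte list in place of Ptprc, Itgal differed by 0.56 in uncured and -0.32 in cured against untreated mice, and Itga4 by 0.84 in cured against untreated. The causes were not tested. Over all genes, the count in dual ICI against untreated at day 21 was 89 as reported, 15 to 507 under the other settings and 6 to 119 without 1 library. Elsewhere the settings gave 0 to 18 (uncured against untreated, 0 as reported), 4016 to 8693 (cured against untreated, 7067), 9576 to 12441 (uncured against cured, 11063), 1289 to 3141 (untreated over time, 1687), 237 to 3192 (uncured over dual ICI day 21, 857) and 0 to 1 (interaction, 0). Without 1 library they were 4491 to 9388 in cured against untreated, 654 to 4915 in untreated over time and 0 to 4006 in uncured over dual ICI day 21.

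Equal replicate numbers were not taken as pairs of mice. The correlation of their deviations was over 0.1 in 2 of 5 pairs at day 21 (-0.22 to 0.56) and in 3 of 4 pairs of anti-CTLA4 and untreated mice (-0.05 to 0.64). No comparison with 3 or more pairs had every pair above 0.1, which does not exclude that some pairs share a source. For the dual ICI libraries of day 21, most numbers in the titles differ from those in the descriptions. The labels thus give no ground for the replicate block in comparisons with that group. The block changed no other call of the 8 genes than the 2 above, and Itgb7 in cured against untreated mice was 0.96 with it (adjusted p = 0.0451). No paired analysis was possible for uncured against cured mice because uncured and cured mice share no numbers. Depth limits Sele, at 15 to 197 counts, and Madcam1.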
